A study of Aedes aegypti with 12 samples.

Results

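In Aedes aegypti, the yellow fever mosquito, the wild-type fat body was compared with the wild-type brain. The 3 libraries labelled wild-type fat body and the 3 labelled wild-type brain were taken by their labels, which makes 6 of the 12 RNA-seq libraries of the study. All 6 come from the Liverpool strain, kept with a sucrose solution. The other 6 libraries come from the same tissues of mosquitoes mutant for AaegGr34, a gustatory receptor gene, and serve here only as a second pair of tissues. The study itself compared genotypes within each tissue, so the comparison between tissues uses its control libraries for another question: what each tissue expresses, and which transcripts of neighbouring tissues came with it. The sources used here do not give sex, age, feeding state at dissection, the number of animals in a library or the borders of the dissections. Since the series names its libraries biological replicates and tells no more of them, p-values measure only how these libraries spread.

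The fat body is the insect organ of intermediary metabolism: it stores lipid and glycogen, makes trehalose for the blood, handles waste nitrogen, and secretes lipoproteins, immune proteins and, in females after a blood meal, yolk. It lines the abdominal wall and touches ovary, gut, Malpighian tubules, muscle and the oenocytes, cells that make cuticular hydrocarbons in Drosophila. The brain consists of neurons and glia, and in the head it adjoins the compound eyes through the optic lobes, and lies near the antennae and head muscle.

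Fat body libraries 1, 2 and 3 held 24.3 M, 20.3 M and 20.8 M counts in total, against 31.3 M, 22.6 M and 20.7 M in brain libraries 1, 2 and 3. The fat body libraries varied more among themselves, with a biological coefficient of variation of 0.403 against 0.184 in brain, and the TMM scaling factor was lowest in fat body library 1 at 0.700 and ran from 1.00 to 1.20 in the other 5. AaegGr34 itself (LOC5570009) had 2, 4 and 16 counts in the wild-type fat body libraries, 24, 22 and 7 in the wild-type brain libraries, 2, 11 and 2 in mutant fat body and 6, 11 and 28 in mutant brain. Those counts are too low and too alike to check the genotype labels.

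The abundance of genes within a tissue was read from the authors' TPM, which is scaled by gene length. In brain a single gene stood far above the rest. Opsin-1 (LOC5567680, chromosome 3, 63253679 to 63255160, plus strand, AaegL5.0), which encodes a light receptor protein of photoreceptor cells, reached 251338 ± 17766 TPM (SD, n = 3). It held 26.7%, 23.2% and 25.5% of all TPM in brain libraries 1, 2 and 3. No fat body gene came near that share. The first fat body gene, elongation factor 1-alpha (LOC23687516, chromosome 2, 45576557 to 45580489, minus strand), which carries aminoacyl-tRNA to the ribosome, reached 21514 ± 1725 TPM and held 2.27%, 1.95% and 2.23%.

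The fat body had a broad top instead, made of the translation machinery. Of its 20 most abundant genes by TPM, 16 encode cytosolic ribosomal proteins, against 11 of 20 in brain. Ordered by CPM, which is not scaled by gene length, 9 of 20 did in fat body and 1 of 20 in brain. 40S ribosomal protein S2 (LOC5572968) reached 12589 ± 839 TPM in fat body against 2458 ± 312 in brain, and S15 (LOC5575105) reached 10622 ± 1147 against 2773 ± 294. All cytosolic ribosomal proteins together held 55.3%, 48.7% and 46.9% of the TPM of fat body libraries 1, 2 and 3 and 16.7%, 18.1% and 18.9% of brain libraries 1, 2 and 3. Of all counts they held less, 33.7%, 26.4% and 24.5% in fat body libraries 1, 2 and 3 and 7.25%, 7.82% and 8.48% in brain. The groups did not overlap on either measure. The 100 most abundant genes held 66.0%, 58.7% and 56.5% of fat body TPM and 55.0%, 51.8% and 56.5% of brain TPM, so by then the tissues lay close, and fat body library 3 and brain library 3 were almost equal. At least 1 TPM was reached by 9656, 10504 and 10653 genes in the fat body libraries and by more, 11280, 11290 and 11132, in the brain libraries.

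**Figure D1:**
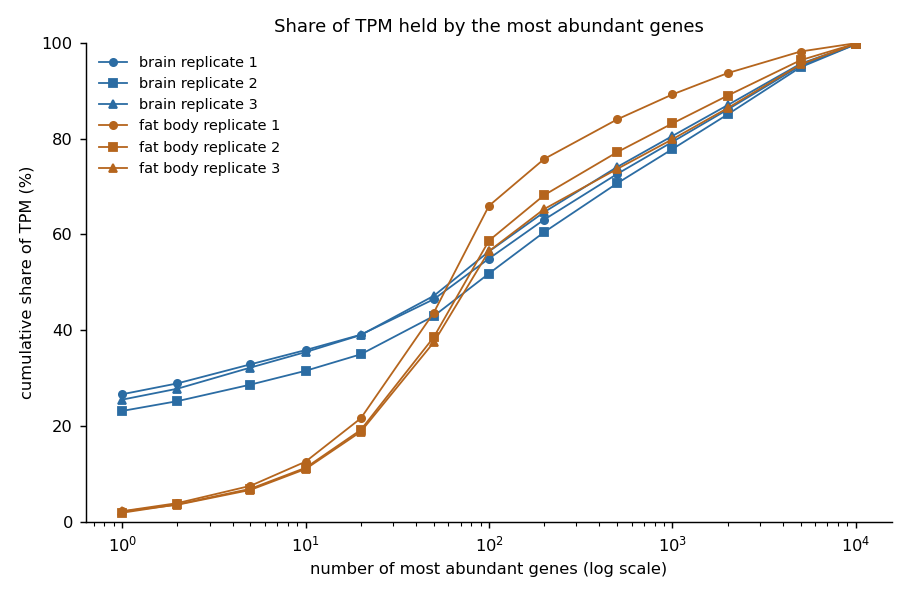
Cumulative share of TPM (%) held by the most abundant genes, ranked within each library, against the number of genes on a log scale; each line is 1 library of wild-type fat body or wild-type brain. The brain lines start between 23.2% and 26.7% with 1 gene, the fat body lines start near 2%, and by 100 genes they have caught up with the brain lines.

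In the brain, 5 of the 20 most abundant genes belonged to the photoreceptor list and none of the fat body's 20 did. Beside opsin-1 these were a second opsin-1 gene (LOC5568060) at 21963 ± 1329 TPM, arrestin (LOC5577143), which ends the signal of activated rhodopsin, at 15883 ± 3404 TPM, an unplaced opsin-1-like gene (LOC110680887) at 15369.7 ± 847 TPM, and a second arrestin (LOC5578159) at 7092 ± 1713 TPM. In fat body those 4 stood between 16.6 and 33.6 TPM. An uncharacterized unplaced gene (LOC110680888), annotated on the other strand across the opsin-1-like gene, came to 7706 ± 610.4 TPM in brain, and reads of the overlapping pair cannot be told apart without knowing how strand was counted. The tissues shared 8 of their 20 genes, among them an uncharacterized non-coding RNA (LOC5565553) with 16059 ± 1883 TPM in fat body and 4161 ± 623 in brain.

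Other genes high in each tissue, outside the ribosomal and photoreceptor lists and picked after their values were seen, showed what lies under these layers. In fat body they were heat shock cognate 4 (LOC110678734, a chaperone) at 9114 ± 657 TPM, elongation factor 2 (LOC5564921) at 6539.5 ± 586, S-adenosylmethionine synthase (LOC5564925), which makes the methyl donor of the cell, at 3398 ± 242, and an acyl-CoA desaturase (LOC5577524) at 2308 ± 837. Malic enzyme (LOC5567037), a source of NADPH for lipid synthesis, reached 1664 ± 788 TPM in fat body against 92.4 ± 9.22 in brain. Argininosuccinate lyase (LOC5577897), which releases arginine, reached 1520.1 ± 434 against 47.3 ± 21.1. In brain they were calmodulin (LOC5580239), the calcium sensor, at 2637 ± 109.9 TPM against 228 ± 46.3 in fat body, neuroendocrine protein 7B2 (LOC5573386), a partner of prohormone convertase, at 1771 ± 140.2 against 7.93 ± 1.37, and an amidating lyase (LOC5579975), which finishes many neuropeptides, at 1233 ± 50.9 against 6.29 ± 1.29. Each of those 3 brain genes had a small spread among libraries.

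Differences between the tissues were tested on the counts. Of 12088 genes tested with edgeR's quasi-likelihood F-test, 7815 were called at an adjusted p under 0.05, which is 64.7%. They split into 3868 higher in fat body (32% of the genes tested) and 3947 higher in brain (32.7%). For 8748 genes, or 72.4%, the 3 values of one tissue all lay above the 3 of the other. With so many genes called, a count of called members in any list has to be read against these shares. Some lists were trimmed by name after the files were opened, and the count before trimming is given where it differs much. Below, a log2 fold change is fat body over brain, so that positive values are higher in fat body, CPM is the count scaled to the TMM-adjusted library size, and adjusted p-values are edgeR's over all genes tested. A bulk library cannot tell fewer cells of a type from less RNA per cell. On TPM the balance leaned to brain: limma on log2(TPM + 1) put 66.4% of its calls there, against 50.5% here, and the median log2 fold change of all genes moved from 0.02 to -0.41.

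The size of the differences was not even. At least 8-fold differences were called for 1093 genes in favour of fat body and 1521 in favour of brain, and at least 32-fold for 403 and 736. No count was seen in any brain library for 52 of the genes higher in fat body, and none in any fat body library for 55 of those higher in brain. Genes higher in brain were less well annotated: 29.5% carry the description uncharacterized, against 18.2% of those higher in fat body and 23.6% of all genes tested. Long non-coding RNAs numbered 402 among the genes higher in brain and 153 among those higher in fat body, of 868 tested.

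Genes higher in brain also spanned more of the genome. Their median span was 23.8 kb, against 11.3 kb for genes higher in fat body and 14.8 kb for all genes tested. The share called higher in brain was between 25.8% and 31.1% in the 4 shorter of 5 equal classes of span, and 52.5% in the longest class, above 61.8 kb, where the share higher in fat body was 17.5% and the median log2 fold change -0.89. The span comes from the annotation and counts introns.

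**Figure D2:**
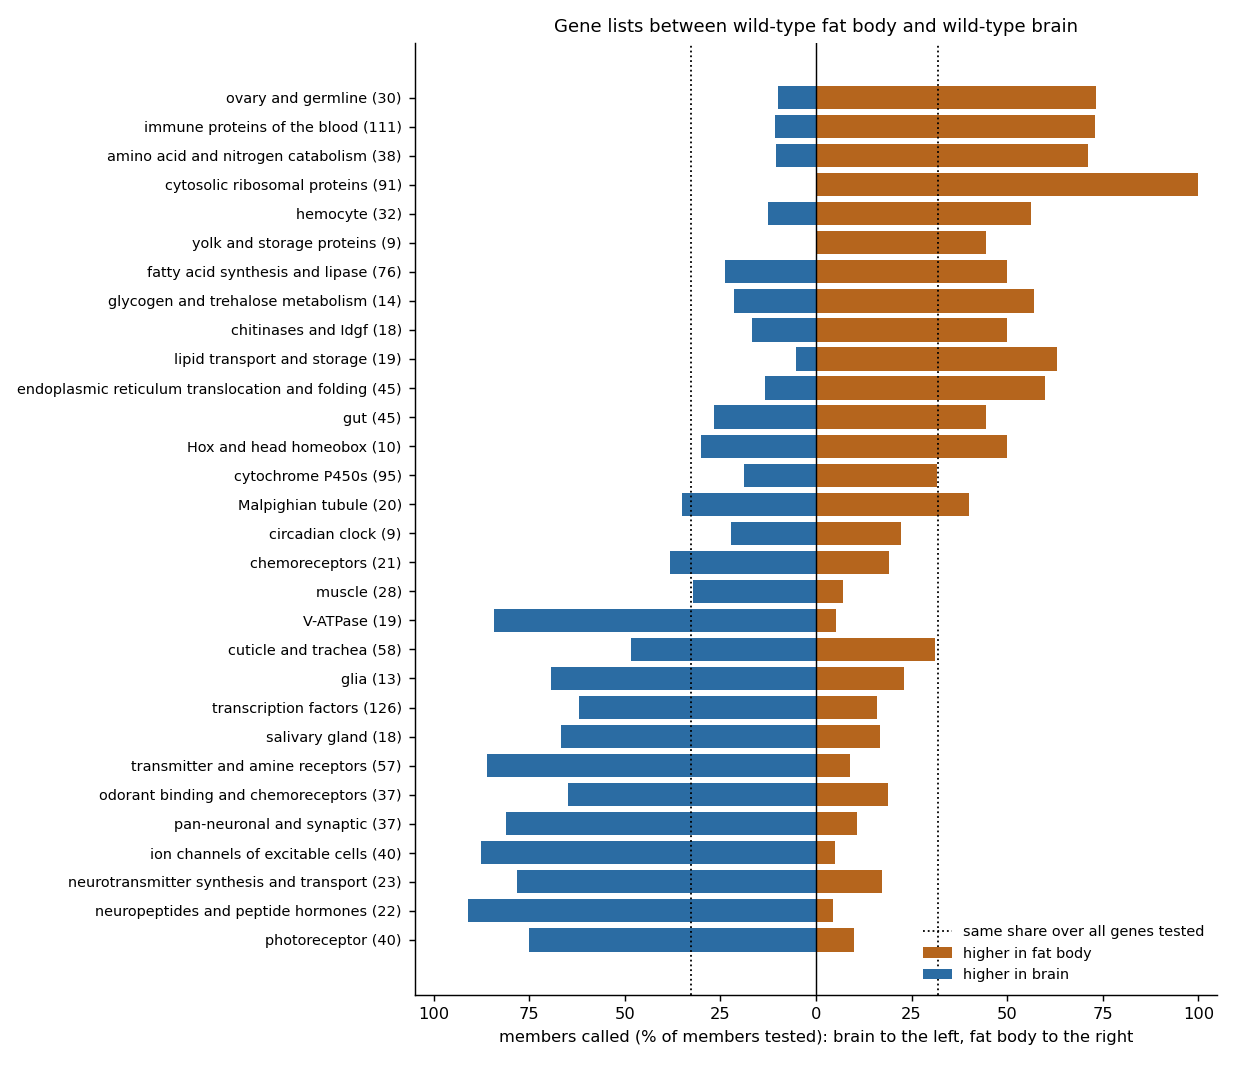
Share of the tested members of each gene list (number tested in brackets, after trimming) called higher in brain, drawn to the left, and higher in fat body, drawn to the right, in % of members tested; dotted lines mark the shares over all genes tested, 32.7% and 32%. Ribosomal proteins lie wholly on the fat body side, and the neuronal, receptor, neuropeptide, channel and V-ATPase lists mostly on the brain side.

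The ribosomal list was uniform. All 91 tested members of 98 were higher in fat body, with a median log2 fold change of 2.07, against 0.02 over all genes tested, and all 91 had no overlap between the tissues. EF1-alpha (LOC23687516) had 47694, 25129.6 and 23301 CPM in fat body and 1105, 1155 and 1432 in brain. Fat body library 1 was the highest, and every fat body value was far above brain (log2 fold change 4.70 ± 0.48 (SE), adjusted p = 1.56e-04). The secretory pathway shared the direction in part. Of 45 genes of endoplasmic reticulum translocation and folding, 27 were higher in fat body against 6 in brain. Protein disulfide-isomerase (LOC5565441), which forms disulfide bonds in secreted proteins, was higher in fat body (1.81 ± 0.33, adjusted p = 0.0025), while calnexin (LOC5579514), a chaperone of glycoproteins, was higher in brain (-2.29 ± 0.29, adjusted p = 4.9e-04).

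Many lipid genes were higher in fat body. Fatty acid synthase (LOC5568814, chromosome 2, 307544012 to 307601765, minus strand) had 19049.6, 14739 and 3900.5 CPM in fat body libraries 1, 2 and 3 and 342, 347 and 464 CPM in brain. Fat body library 3 was low, yet all 3 stood above every brain value (5.03 ± 0.67, adjusted p = 5.7e-04). Acetyl-CoA carboxylase (LOC5567854), the step before it, was low in the same library, with 4129, 3048 and 857 CPM against 119.7, 125 and 166 (4.29 ± 0.61, adjusted p = 8.02e-04). Of 76 tested members of the fatty acid synthesis and lipase list, 38 were higher in fat body against 18 in brain (median 1.26). Those higher in brain included lipase 1 (LOC5567295), with at most 1.47 CPM in fat body and between 125 and 178 CPM in brain.

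Of 19 tested genes of lipid transport and storage, 12 were higher in fat body against 1 in brain (median 1.08). Apolipophorins (LOC5572681), the protein of the lipid-carrying particle of insect blood, had 3740.1, 1889 and 1584 CPM in fat body and 448, 627 and 665 in brain (2.05 ± 0.40, adjusted p = 0.00354). Lipid storage droplet protein 1 (LOC5567287), which coats fat droplets, had 1545, 1163 and 592 CPM against 19.2, 19.6 and 20 (5.81 ± 0.44, adjusted p = 4.85e-05). Its brain values were almost equal and its fat body values spread more than 2-fold. The 1 member higher in brain was apolipoprotein D (LOC5578236), a small lipid carrier, and that call was lost without brain library 3 (adjusted p = 0.0561) or without fat body library 2 (0.0829).

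Some genes of fatty acid and hydrocarbon synthesis, grouped after their values were seen, were far higher in fat body, and 4 of the 5 were at or near 0 in brain. Cytochrome P450 4g15 is encoded by a pair of genes: LOC5568416 had 1864, 1158 and 492 CPM in fat body and at most 0.922 CPM in brain, while LOC5564064 had 3450.1, 2261 and 963 against 55, 75.2 and 51.3 (5.20 ± 0.55, adjusted p = 2.07e-04). In Drosophila a P450 of the 4g family makes hydrocarbons in oenocytes. An elongation protein of very long chain fatty acids (LOC5578161) had 119, 77.5 and 30.4 CPM in fat body and no count in brain, at least 1983-fold higher when brain is set at 3 counts over its libraries. A fatty acyl-CoA reductase named for Drosophila wat (LOC5579998) had 90.7, 40.8 and 21.5 CPM in fat body and no count in brain. A second fatty acid synthase (LOC5573927) had 1562, 776 and 492 CPM against at most 0.433 in brain. In each of these 5 genes fat body library 1 was highest and library 3 lowest.

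Nitrogen metabolism followed the fat body as well. Of 38 tested genes of amino acid and nitrogen breakdown, 27 were higher in fat body against 4 in brain (median 2.32). Uricase (LOC5573896), which opens urate, had 666, 558 and 186 CPM in fat body and 1.16, 0.682 and 3.51 in brain (8.07 ± 0.87, adjusted p = 2.24e-04; 8.96 without brain library 3). An enzyme on the way to proline differed in direction from enzymes that break proline down. Pyrroline-5-carboxylate synthase (LOC5568426), on the way to proline, had 1216, 761 and 568 CPM in fat body against 31.6, 40.1 and 61.2 in brain (4.26 ± 0.43, adjusted p = 1.59e-04). Proline dehydrogenase (LOC5577947), which begins its breakdown, went the other way, with 42.9, 70.1 and 81.7 CPM against 798, 869 and 801 (-3.66 ± 0.31, adjusted p = 7.95e-05). The next enzyme of breakdown, pyrroline-5-carboxylate dehydrogenase (LOC5566485), was higher in brain too (-2.65 ± 0.31, adjusted p = 3.18e-04).

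Sugar genes also went both ways. Trehalose-phosphate synthase (LOC5568007), which makes the blood sugar of insects, had 1434, 851 and 531 CPM in fat body and 13.1, 14.3 and 12.7 in brain (6.13 ± 0.46, adjusted p = 4.68e-05). Trehalase (LOC5572224), which splits it to glucose, had 63.5, 114 and 121 CPM in fat body and 267, 354 and 295 in brain (-1.62 ± 0.29, adjusted p = 0.00241). Glycogen synthase (LOC5564353) was higher in fat body (1.57 ± 0.20, adjusted p = 4.51e-04). Glucose-6-phosphatase (LOC5564502), the enzyme that frees glucose, had at most 0.706 CPM in fat body and 59.9, 53.9 and 71.6 CPM in brain (-6.77 ± 0.33, adjusted p = 1.1e-05). Over the list of glycogen and trehalose metabolism, 8 of 14 tested members were higher in fat body against 3 in brain.

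Immune proteins of the blood leaned to fat body: 81 of 111 tested members were higher there, 12 were higher in brain and 18 were not called (median 2.84). Melanization protease 1 (LOC5568251), a serine protease of the cascade that blackens wounds and parasites, had 752, 505 and 236 CPM against 10, 12.6 and 19.2 (5.16 ± 0.53, adjusted p = 1.81e-04). Transferrin (LOC5579417), an iron carrier of the blood, had 1589, 555 and 933 CPM against 83.9, 92.4 and 231 (2.92 ± 0.56, adjusted p = 0.00321; 3.53 without brain library 3). Holotricin-3 (LOC23687956), named for an antimicrobial peptide of a beetle, had 1869, 539.6 and 513 CPM against 62.3, 60.6 and 77 (3.87 ± 0.58, adjusted p = 0.00103; 2.99 without fat body library 1). Those higher in brain included a C-type lectin (LOC5563675) and ficolin-3 (LOC5566276), described with the salivary genes, and a beta-1,3-glucan-binding protein (LOC5568698) with 102, 66.9 and 112 CPM in brain and at most 0.29 CPM in fat body.

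Yolk genes were low in the fat body libraries. Vitellogenin-A1 (LOC5573342), a yolk protein gene, had a mean of 0.667 ± 0.188 CPM in fat body and 0.156 ± 0.236 in brain and was too low to test. Of 9 tested yolk and storage proteins, 4 were higher in fat body and 5 were not called. The most abundant of those 4 was hexamerin-1.1 (LOC5579047), a storage protein, with 46.8, 29.6 and 14.5 CPM in fat body and 2.04, 3.29 and 3.27 in brain (3.40 ± 0.47, adjusted p = 6.82e-04). The gene described as vitellogenin-1 (LOC5567092) had 114, 57.5 and 31.5 CPM against 76.9, 80.2 and 55.8 and was not called (adjusted p = 0.899).

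Cytochrome P450s, enzymes of hormone synthesis and detoxification, did not form a fat body group: 30 of 95 tested were higher in fat body, 18 in brain and 47 were not called. Without fat body library 1 the counts were 29 and 29, and on log2(TPM + 1) they were 21 and 30. Cytochrome P450 6a14 (LOC5571382) was the most abundant of those higher in fat body after the 4g15 pair.

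Of 37 tested pan-neuronal and synaptic genes, 30 were higher in brain, 4 in fat body and 3 were not called, with a median log2 fold change of -3.82. Before trimming, 41 of 62 were higher in brain against 13 in fat body (median -1.84). Complexin (LOC5569269), which controls the fusion of synaptic vesicles and is overlapped by 3 genes on the other strand, had 24.8, 27 and 21.8 CPM in fat body and 1670.5, 1527 and 1726 in brain (-6.06 ± 0.28, adjusted p = 9.52e-06). Synaptotagmin 1 (LOC5565901), the calcium sensor of release, had 3, 2.75 and 1.52 CPM against 358, 415 and 429 (-7.38 ± 0.36, adjusted p = 1.08e-05). The values within each tissue were close to each other for both genes. The 4 that were higher in fat body included futsch (LOC5564875), a microtubule protein of Drosophila axons, with 32.2, 115 and 146 CPM against 9.45, 12.6 and 7.12 (3.33 ± 0.57, adjusted p = 0.00179).

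Transmitter genes showed the same lean with named exceptions. Of 23 genes of transmitter synthesis and transport, 18 were higher in brain against 4 in fat body (median -4.82). Glutamate decarboxylase (LOC5575655), which makes GABA, had 8.53, 7.15 and 3.05 CPM in fat body and 788, 792 and 836 in brain (-7.02 ± 0.47, adjusted p = 3.12e-05). The exceptions lay in the amine pathway. Tyrosine 3-monooxygenase (LOC23687518) makes DOPA, which serves dopamine synthesis and the tanning of cuticle and eggshell, and had 185, 720.3 and 1273 CPM in fat body against 134, 156 and 89.1 in brain (2.52 ± 0.66, adjusted p = 0.012; without brain library 3 adjusted p = 0.0518, and without fat body library 3 the log2 fold change was 1.86). Aromatic-L-amino-acid decarboxylase (LOC5563940), the next step, had 62.7, 155 and 205 CPM against 40.4, 47.3 and 49.8 (1.62 ± 0.41, adjusted p = 0.0108). In both, as in futsch, fat body library 1 was lowest.

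Of 57 tested transmitter and amine receptors, 49 were higher in brain against 5 in fat body (median -3.36). NMDA receptor subunit 1 (LOC5570802), a glutamate-gated channel, had 4.35, 2.99 and 2 CPM in fat body and 516, 507 and 528 in brain (-7.38 ± 0.37, adjusted p = 1.22e-05). An octopamine receptor (LOC5564696) ran against the list, with 10.5, 46 and 53.9 CPM in fat body and 1.62, 1.8 and 2.21 in brain (4.30 ± 0.63, adjusted p = 8.65e-04). Of 40 tested ion channels of excitable cells, 35 were higher in brain against 2 in fat body (median -4.16). The sodium leak channel (LOC5579947), which sets resting excitability, had 11.1, 10.7 and 6.37 CPM against 288, 301 and 334 (-5.03 ± 0.30, adjusted p = 1.93e-05).

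Of 22 tested neuropeptides and peptide hormones, 20 were higher in brain against 1 in fat body (median -6.44). Drosulfakinin (LOC110677123), a satiety peptide in flies, had 845, 686 and 276 CPM in brain and at most 1.35 CPM in fat body. SIFamide (LOC5572527) had 273, 313 and 411 CPM in brain, again with at most 1.35 CPM in fat body. Prohormone-3 (LOC5573079) had 1035, 996 and 932 CPM in brain against 11.9, 8.11 and 4.61 in fat body (-6.91 ± 0.44, adjusted p = 2.63e-05). The 1 member higher in fat body was described as probable insulin-like peptide 7 (LOC5580310), with 6.82, 5.89 and 2.8 CPM against 0.671, 0.882 and 0.385 (2.97 ± 0.48, adjusted p = 0.00143), and it overlaps a pair of genes on the other strand.

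Glial genes leaned to brain less steeply, with 9 of 13 tested higher in brain against 3 in fat body (median -1.51). An excitatory amino acid transporter (LOC5565890), which clears glutamate, had 5.53, 3.09 and 1.04 CPM in fat body and 462, 465 and 383 in brain (-7.10 ± 0.64, adjusted p = 1.04e-04; -7.74 without fat body library 1). Its relative, excitatory amino acid transporter 1 (LOC5577252), had 210.1, 139 and 60.1 CPM in fat body against 21.9, 21.7 and 15.4 (2.79 ± 0.46, adjusted p = 0.0015), so the family divided between the tissues. Glutamine synthetase 2 (LOC5577984), which turns glutamate to glutamine in glia, had 47.2, 98 and 130.2 CPM against 752, 1176 and 1026 (-3.42 ± 0.43, adjusted p = 4.51e-04).

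The V-ATPase is the proton pump that fills synaptic vesicles and acidifies organelles. Of the 19 genes of its list, 16 were higher in brain against 1 in fat body. The proteolipid subunit (LOC5573732) had 885, 673 and 483 CPM in fat body and 1563, 1449 and 1560.3 in brain (-1.16 ± 0.29, adjusted p = 0.00978; 0.0558 without fat body library 2). The 1 gene higher in fat body encodes an a subunit of the membrane sector (LOC5579216), with 55.5, 65.8 and 73.1 CPM against 17.1, 14.6 and 16.3 (2.02 ± 0.19, adjusted p = 1.24e-04).

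**Figure D3:**
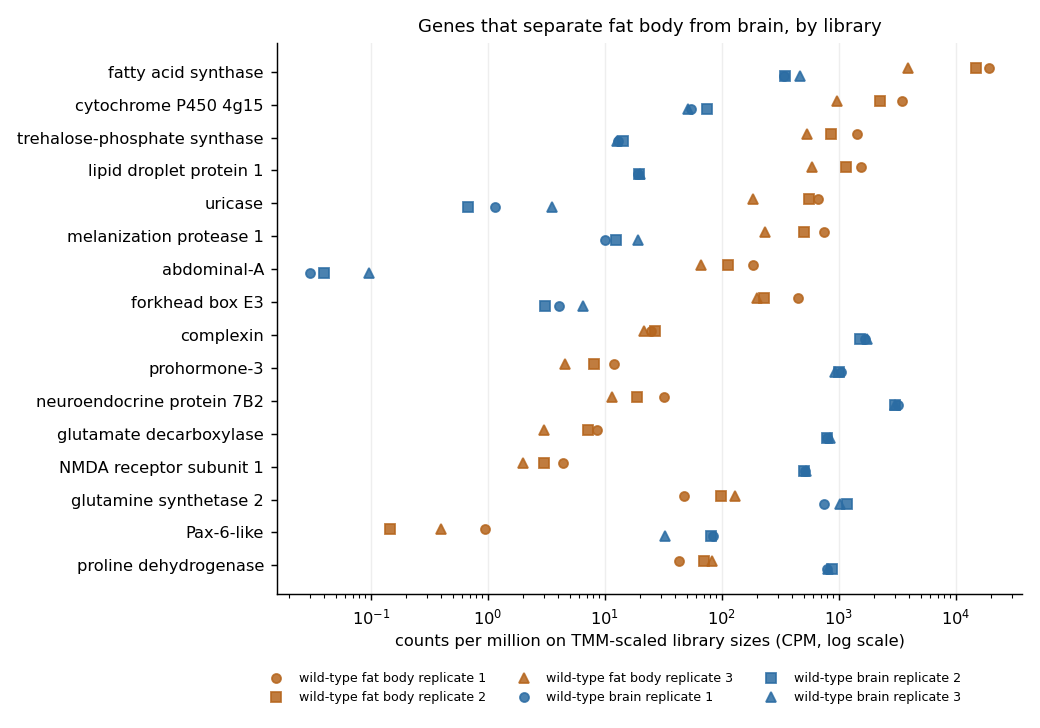
CPM on TMM-scaled library sizes (log scale) of 16 genes in each wild-type fat body library and each wild-type brain library; every point is 1 library, with marker shape for the replicate. The upper 8 genes are higher in every fat body library and the lower 8 in every brain library. Among the fat body values, each of the upper 8 is highest in library 1 and lowest in library 3.

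Homeobox genes of body position separated the tissues. In insects Hox genes give segments their identity along the body. Abdominal-A (LOC5578718, chromosome 1, 309107018 to 309233085, plus strand) had 185, 113 and 66.5 CPM in fat body and at most 0.0962 CPM in brain (11.07 ± 0.66, adjusted p = 1.93e-05). Ultrabithorax (LOC5579159) had 39.5, 25.2 and 27.8 CPM in fat body and at most 0.0915 in brain, and Abdominal-B (LOC5572615) had 3.12, 4.25 and 3.89 CPM with at most 0.0802 in brain. The head genes went the other way at low levels. Deformed (LOC5572678) had 3.66, 2.45 and 3.99 CPM in brain and at most 0.118 CPM in fat body, and the gene described as Hox-A1 (LOC5579860) had 4.24, 4.05 and 4.81 CPM in brain and at most 0.0966. Of 10 tested Hox and head homeobox genes, 5 were higher in fat body against 3 in brain, and none of the 10 overlapped between the tissues. Over all genes tested 64.7% were called and 72.4% did not overlap, so for 10 genes these counts say little.

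Transcription factors as a whole leaned to brain, with 78 of 126 tested higher there and 20 in fat body (median -1.77), and without fat body library 1 the latter count was 31. Nkx-2.1 (LOC5578993), a homeobox factor of forebrain development in vertebrates, had 2.18, 5.5 and 5.69 CPM in fat body and 136, 137 and 138 in brain (-4.93 ± 0.39, adjusted p = 6.33e-05). A Pax-6-like gene (LOC110674735), a relative of the eye and brain factor, had 83.4, 81.1 and 33 CPM in brain and at most 0.941 CPM in fat body. In fat body the forkhead gene FOXE3 (LOC5566982) had 445, 231 and 202 CPM against 4.09, 3.09 and 6.54 (64.2-fold, adjusted p = 6.65e-05). A hepatocyte nuclear factor 4 gene (LOC5574683), a regulator of lipid use in the Drosophila fat body, was higher there by less, with 70.9, 60.2 and 62.4 CPM against 23.1, 22.8 and 20.9 (1.54 ± 0.17, adjusted p = 2.49e-04).

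The clock genes did not separate the tissues as a list, and 1 brain library stood apart in them. Of 9 tested, 2 were higher in each tissue and 5 were not called, and before trimming 7 of 17 were higher in fat body against 5 in brain. Period (LOC5570169), the negative arm of the clock, had 45.4, 40.6 and 507 CPM in brain libraries 1, 2 and 3 and 255, 151 and 149.9 CPM in fat body, so brain library 3 was above and the other brain libraries below every fat body value. It was not called (-0.09 ± 0.94, adjusted p = 0.938), and without brain library 3 it was higher in fat body (2.09, adjusted p = 0.00425). Cycle (LOC5573421), of the positive arm, was the mirror image, with 254, 244 and 19.3 CPM in brain and 54.9, 41.8 and 21.6 in fat body. It was not called either (adjusted p = 0.0618), and without brain library 3 it was higher in brain (-2.68, adjusted p = 0.00326). The sources used here do not give the hour of dissection. Cryptochrome-1 (LOC5564182), the light-sensing cryptochrome, did not show that break, with 247, 215 and 292 CPM in brain against 40.1, 24.5 and 15.8 (-3.23 ± 0.37, adjusted p = 3e-04).

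Transcripts of the eye filled a large part of the brain libraries. The 43 genes of the photoreceptor list held 27.1%, 23.4% and 28.3% of all counts in brain libraries 1, 2 and 3, and 0.128%, 0.109% and 0.0872% in fat body libraries 1, 2 and 3. Of 40 tested, 30 were higher in brain, 4 in fat body and 6 were not called (median -6.62; between -5.50 and -6.68 with one library left out). Before trimming, 47 of 92 were higher in brain against 18 in fat body (median -1.03). Opsin-1 (LOC5567680) had 192376, 157623 and 199893 CPM in brain and 877, 266 and 186 in fat body (-8.69 ± 0.91, adjusted p = 1.96e-04; -9.66 without fat body library 1). The ultraviolet-sensitive opsin (LOC5572198) had 2153, 1805 and 2278 CPM in brain, and opsin-3 (LOC5576882) had 1237, 1227 and 1272. A pair of further opsin-1 genes with similar counts (LOC5566755 and LOC5566757) was low and uneven, with about 29 to 31 CPM in brain libraries 1 and 2 and 95.2 and 103 CPM in brain library 3. Reads of such copies may be divided among them in ways the counts do not show.

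The steps of the light response downstream of opsin were present in brain too. The ninaC myosin (LOC5564852), which sits in the light-sensing membrane in flies, had 742, 720.1 and 454 CPM in brain and at most 1.79 CPM in fat body (-8.70 ± 0.38, adjusted p = 9.52e-06). The channel gene trp (LOC5566497) had 324, 259 and 193 CPM in brain and at most 0.706 CPM in fat body (-9.04 ± 0.40, adjusted p = 9.52e-06), and its relative trp-like (LOC5566698) had 2492, 2345 and 5940.0 CPM in brain against 19.5, 11.1 and 6.05. Glass (LOC110674063), the factor that makes photoreceptors in flies, had 135, 122 and 86.8 CPM in brain against 1.88, 1.74 and 2.97 (-5.69 ± 0.33, adjusted p = 1.92e-05). Whether the retina was left on the brain is not stated in the sources used here.

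Relative to brain, the eye genes in fat body differed in level. The most abundant eye transcripts stood in fat body below 1% of the brain mean and were ordered alike: opsin-1 (LOC5567680) stood at 0.478%, 0.145% and 0.102% in fat body libraries 1, 2 and 3, and arrestin (LOC5577143) at 0.491%, 0.219% and 0.104%. The second opsin-1 (LOC5568060) was at 0.453%, 0.188% and 0.0943%, and trp-like (LOC5566698) at 0.544%, 0.309% and 0.168%. Fat body library 1 was the highest in all 4 and library 3 the lowest. Some signalling members stood higher and were not ordered so. The Gq alpha subunit (LOC5573467), which couples opsin to phospholipase C, was at 12.3%, 14.9% and 12.1%. The phospholipase C gene itself (LOC5571895) was at 3.04%, 7.38% and 7.92%, and eye-specific diacylglycerol kinase (LOC5578809) at 4.82%, 14.9% and 12.2%. Others stayed below 1%: the G protein beta-2 subunit (LOC5570133) at 0.873%, 0.409% and 0.340%, and ninaC (LOC5564852) at 0.184%, 0.280% and 0.251%, lowest in library 1. The reason for these levels was not tested. Chaoptin, an adhesion protein of fly photoreceptors, is the description of several genes that differed: LOC5571316 had 162, 141 and 204 CPM in brain and at most 0.882 in fat body, while LOC5567663 had 92.2, 40.1 and 30.7 CPM in fat body and 1.71, 1.92 and 2.65 in brain.

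**Figure D4:**
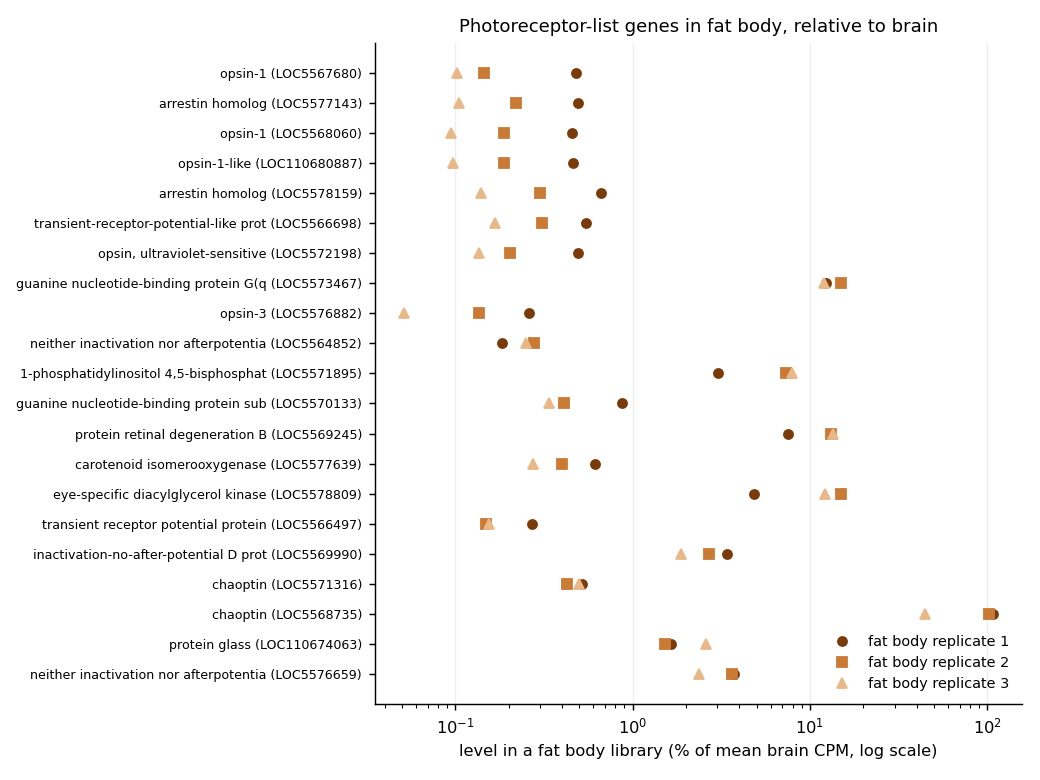
Level of photoreceptor-list genes in each fat body library as a percentage of the mean CPM in wild-type brain (log scale); each point is 1 fat body library. Opsins and arrestins lie below 1% with library 1 highest and library 3 lowest, the Gq subunit lies at 12.1% to 14.9%, and 1 chaoptin gene lies at 44.4% to 108%.

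Transcripts of the ovary were found in the fat body libraries, unevenly. The ovary and germline list held 0.175%, 0.675% and 0.977% of counts in fat body libraries 1, 2 and 3 and 0.166%, 0.182% and 0.161% in brain. By this share alone library 1 was near the brain level. Of 30 tested members, 22 were higher in fat body, 3 in brain and 5 were not called. The median was 4.63, ran from 4.23 to 5.84 with one library left out, and was 1.53 over all members with any count and 1.51 with DESeq2. Before trimming, 24 of 37 were higher in fat body against 4 in brain (median 1.40). Oskar (LOC5577338, chromosome 3, 184139917 to 184154867, plus strand), which builds the germ plasm of the egg, had 163, 569.5 and 748 CPM in fat body and at most 0.561 in brain (10.36 ± 1.05, adjusted p = 1.66e-04). Vasa (LOC5565755), a germline RNA helicase, had 255, 814 and 893 CPM against 11.3, 11.8 and 9.24 (5.92 ± 0.55, adjusted p = 1.23e-04). The vitellogenin receptor gene (LOC5569465), through which oocytes take up yolk, had 227, 634 and 747 CPM in fat body and 2 counts in all brain libraries together. Exuperantia-2 (LOC5572898), which places RNA in the oocyte, had 134, 684 and 1056 CPM against 3 counts in brain. In all 4 genes fat body library 1 was lowest and library 3 highest, and library 1 still stood far above every brain library.

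The ovary signal had limits in both tissues. The 7 genes described as vitelline membrane proteins, made by follicle cells late in egg growth, had means of at most 0.501 CPM in fat body, reached by LOC5568248, and none was tested. Of the genes described as chorion peroxidase, which hardens the eggshell, LOC5564684 had 174, 553 and 743 CPM in fat body and 1 count in brain, while LOC5575607 was higher in brain, with 132, 130.4 and 172 CPM against at most 1.35 (-7.58 ± 0.51, adjusted p = 3.17e-05; -8.20 without fat body library 1). Genes outside the ovary list that took the same order among the fat body libraries, picked by that order after the values were seen, were futsch (LOC5564875), tyrosine 3-monooxygenase (LOC23687518), the octopamine receptor (LOC5564696) and FOXN2 (LOC5572572), the last with 38.3, 129 and 139 CPM against 24.5, 24.1 and 24.7 in brain (2.07 ± 0.46, adjusted p = 0.00611). How much of their difference comes with ovary tissue was not tested. Among the 15 named genes with the largest differences in favour of fat body, tenascin (LOC5567181) with 56.1, 247 and 251 CPM and a phosphatase (LOC5568749) with 99.9, 612 and 943 CPM also had library 1 lowest.

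Muscle genes were present in both tissues. The muscle list held 0.377%, 0.602% and 0.285% of counts in fat body and 0.985%, 0.905% and 0.692% in brain. Of 28 tested, 9 were higher in brain, 2 in fat body and 17 were not called, and without fat body library 3, the lowest, 7 were higher in fat body. Before trimming, 21 of 54 were higher in brain against 7 in fat body. Muscle LIM protein 1 (LOC5568444), of the contractile bands, had 335, 344 and 141 CPM in fat body and 1399, 1238 and 1089 in brain (-2.18 ± 0.39, adjusted p = 0.00215). Muscle myosin heavy chain (LOC5566990) had a mean of 1112 ± 489 CPM in fat body and 1866 ± 342 in brain and was not called (adjusted p = 0.143). Flightin (LOC5564443), a protein of flight muscle in flies, was higher in brain at 88.1 ± 12.6 CPM against 11.8 ± 6.20 (-2.91 ± 0.44, adjusted p = 0.0011).

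Salivary genes were uneven among the brain libraries. The salivary list held 0.0231%, 0.0553% and 0.0222% of counts in brain libraries 1, 2 and 3, with library 2 high. In fat body libraries 1, 2 and 3 it held 0.0340%, 0.0259% and 0.0390%, so the tissues overlapped in this share. Prosialokinin (LOC5572020), a vessel-widening peptide of saliva, had 6.8, 35.4 and 7.22 CPM in brain and 1 count in all of fat body. The 30 kDa salivary allergen (LOC5580040) had 25.9, 60.3 and 17.6 CPM in brain. The C-type lectin (LOC5563675) with 10.6, 49.8 and 12.1 CPM and ficolin-3 (LOC5566276) with 5.4, 39.8 and 5.34 CPM, both from the immune list, were high in the same library. Of 18 tested salivary genes, 12 were higher in brain against 3 in fat body (14 against 6 of 25 before trimming). Those 3 included an apyrase (LOC5564321), a nucleotide-splitting enzyme, with 115, 53.2 and 73.6 CPM in fat body against 3.99, 4.49 and 6.11 (4.05 ± 0.36, adjusted p = 1.02e-04).

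Some antennal genes were high in brain library 1. Odorant-binding protein 83a (LOC5567584), an odour carrier of antennal fluid, had 144, 58.6 and 37 CPM in brain libraries 1, 2 and 3. The odorant receptor coreceptor (LOC5567058), needed by most smell neurons, had 23.7, 9.54 and 5.1 CPM, and sensory neuron membrane protein 1 (LOC5566411) had 42.6, 15.9 and 4.91 CPM. In all 3 genes brain library 1 was highest and library 3 lowest, and fat body had at most 2.76 CPM. Of 37 tested odorant-binding genes and relatives, 24 were higher in brain against 7 in fat body. That list as a whole held 0.119%, 0.0936% and 0.0978% of counts in brain libraries 1, 2 and 3, so library 1 was highest by less and library 2 lowest. The chemoreceptor list held 0.0150%, 0.00906% and 0.00731%, in the order of the 3 genes. Of 204 chemoreceptor genes only 21 passed the filter on low counts, with 8 higher in brain against 4 in fat body, and the latter were 7 without fat body library 1.

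Gut and excretory genes were minor and divided. The gut list held 0.119%, 0.0609% and 0.0712% of counts in fat body and 0.173%, 0.202% and 0.216% in brain. Of 45 tested, 20 were higher in fat body against 12 in brain, and 16 were higher in each on log2(TPM + 1). Before trimming the lean was gone, with 26 higher in fat body against 29 in brain of 84 (median -0.12, against 0.69 after it). The digestive proteases were high in fat body library 1: trypsin 3A1 (LOC5569681) had 449, 35.2 and 51.6 CPM and trypsin-1 (LOC5576966) 353, 49.2 and 38.3 CPM, against at most 0.884 CPM in brain. The brain side held sugar-digesting enzymes. A maltase (LOC5572111) had 563, 483 and 790.0 CPM in brain and at most 2.17 in fat body, and alpha-amylase I (LOC5568295) had 162, 140.5 and 239 CPM in brain and 3 counts in fat body. Genes of Malpighian tubules, the insect kidney, divided 8 to 7 among 20 tested, and the balance turned with scaling by library size only (7 to 8), on log2(TPM + 1) (5 to 9) and without fat body library 1 (9 to 10). Before trimming and with the V-ATPase included, 15 of 52 were higher in fat body against 24 in brain.

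Blood cell, cuticle and matrix genes were looked at last. The hemocyte list includes matrix genes such as collagens, and which cells made their transcripts was not tested. Of 32 tested genes of the hemocyte list, 18 were higher in fat body against 4 in brain (median 1.83). Before trimming, 21 of 54 were higher in fat body against 14 in brain (median 0.58). Collagen IV (LOC110676861), the chief collagen of basement membranes, had 346, 379.9 and 137 CPM in fat body against 61.1, 53.1 and 63.8 (2.28 ± 0.39, adjusted p = 0.00185). Collagen XVIII (LOC5574086) was the reverse, with 19.2, 17.2 and 10.1 CPM against 252, 240.1 and 257 (-4.01 ± 0.29, adjusted p = 4.4e-05). Of 58 tested cuticle and tracheal genes, 28 were higher in brain against 18 in fat body, and before trimming, with the chitinases, 32 against 27 of 79. Larval cuticle protein LCP-30 (LOC5577601) had 566, 401 and 185 CPM in fat body and at most 1.8 CPM in brain (8.26 ± 0.61, adjusted p = 4.4e-05). Of 18 tested chitinases and their growth-factor relatives, 9 were higher in fat body against 3 in brain. Chitinase-like Idgf4 (LOC5573132) had 604, 298 and 337 CPM in fat body against 117, 127 and 141 (1.69 ± 0.31, adjusted p = 0.00265).

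**Figure D5:**
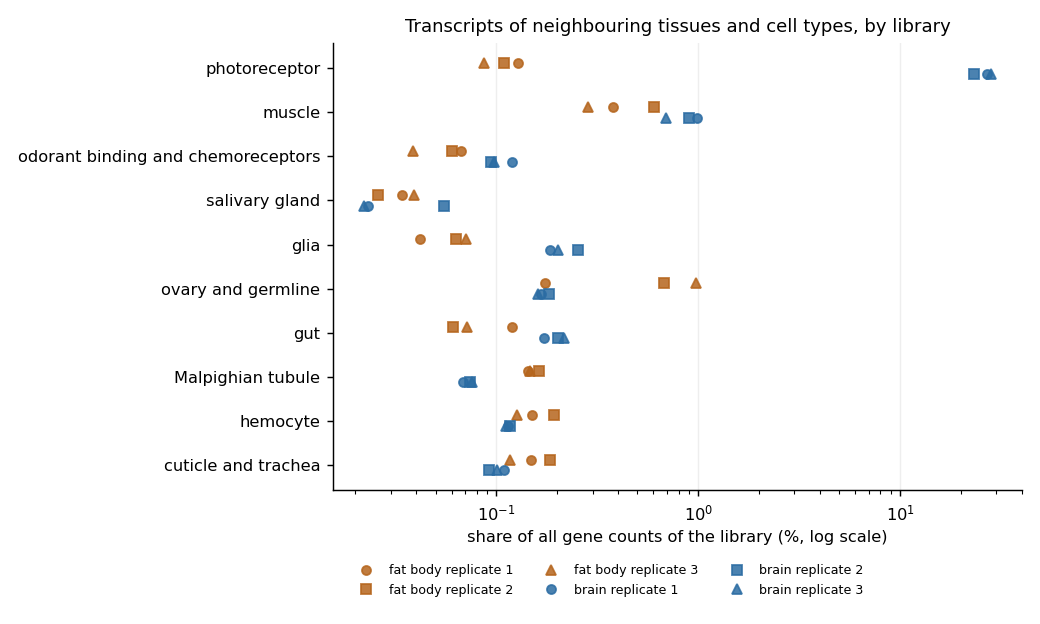
Share of all gene counts of each library (%, log scale) held by lists of genes of neighbouring tissues and cell types; each point is 1 wild-type library. Photoreceptor genes hold 23.4% to 28.3% in brain, ovary genes run from 0.175% to 0.977% over the fat body libraries, and the salivary share is highest in brain library 2.

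The mutant libraries share no library with the wild-type comparison and gave the same contrast apart. Of 12069 genes tested between mutant fat body and mutant brain, 7782 were called (64.5%), with 3963 higher in fat body (32.8%) and 3819 in brain (31.6%). Over the 11620 genes tested in both genotypes, 6615 were called in the same direction, which is 87.8% of the wild-type calls and 87.8% of the mutant calls, and 12 were called in opposite directions. A test of whether the tissue difference itself differed by genotype called 60 of 12859 genes, or 0.467%, and none of the 226 genes named by rule.

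The neighbouring tissues varied in the mutant libraries too. The photoreceptor list held 21.4%, 23.2% and 22.1% of counts in mutant brain libraries 1, 2 and 3. The ovary list held 0.258%, 1.01% and 0.391% in mutant fat body, again with a wide spread. The salivary list held 0.123%, 0.109% and 0.0154% in mutant brain, so library 3 was low. The gut list held 0.0426%, 0.611% and 1.07% in mutant fat body, more in libraries 2 and 3 than in any wild-type fat body library.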

How the data were processed

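Per the labels' protocols, polyA RNA was copied with random primers and made into NEBNext Ultra II libraries. The submitters' processing notes name FastQC, STAR, featureCounts (Subread) and DESeq2, with no versions. The sources used here do not give the build or the handling of strand and multi-mapped reads. The authors deposited estimated counts per gene, of which 25.4% had a fraction, and TPM; positions are on AaegL5.0, on which 18363 of 18393 genes kept their start and end.

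Counts were rounded and fitted with edgeR 4.0.16 (R 4.3.3) on the 6 wild-type libraries (TMM, filterByExpr with count 10 and total 15, robust two-sided quasi-likelihood F-test, Benjamini-Hochberg, threshold 0.05); the mutant libraries were fitted apart with the same settings. The genotype difference was an interaction in a fit of all 12 libraries. A tissue with no count was set at 3 counts over its libraries, which covers counting error only, since reads carry no molecular identifiers. Depth was 20.3 M to 31.3 M counts.

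Gene lists were text patterns on descriptions, some trimmed by name after the files were opened. The members, lists and rule were chosen with earlier results of these data known. The rule named the 20 most abundant genes per tissue by TPM, the 15 largest called fold changes per direction (at least 50 CPM, no overlap, described), 3 called members per list and direction by TPM (6 for transcription factors) and 5 uncharacterized genes per tissue; members of the yolk, ovary, clock and photoreceptor lists were also looked at whole, and other names were picked after their values were seen. Of 226 genes so named, 56 overlap another gene and 103 have counts with a fraction, so these are uncertain to that extent. The test was also run on simulated data in which few genes differed and by modest folds. That run cannot show how the test behaves with as many and as large differences as here.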

Additional observations from a re-analysis of the deposited data

How the results depend on the processing

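Alternatives were other scalings and filters, DESeq2 1.42.0, limma 3.58.1 on TPM, a replicate block, all 12 libraries in one fit, a 2-fold minimum and each library left out, and, added after the data were seen, genes with whole counts only, the newer quasi-likelihood method and TMM without ribosomal and photoreceptor genes. The total of 7815 calls became 4951 with a 2-fold minimum (2377 higher in fat body, 2574 in brain) and 3549 among 5486 genes with whole counts only (1758 and 1791). limma called 2326 genes higher in fat body on log2(TPM + 1) and 2317 on log2(TPM + 0.1), with 66.4% and 66.1% of calls in brain; the median over all genes fell to -0.41 and -0.49, and to -0.09 with library size only. Leaving out a library gave 6626 to 9293 calls. Same-numbered libraries correlated at 0.011, 0.105 and -0.034 in their deviations from the tissue means. With 3 libraries per tissue such values cannot show whether the numbers pair them. A fit with the replicate block called 7209. As shares of TPM, ribosomal proteins held 50.3% in fat body and 17.9% in brain, and photoreceptor genes 0.0694% and 32.0%. In the same order, muscle genes held 0.226% and 0.551%, and salivary genes 0.0272% and 0.0524%. Ordered by CPM, 11 of the 20 fat body genes and 9 of the 20 brain genes were the same. The ADP/ATP carrier (LOC5565544), not called here, was higher in brain on both TPM scales (-0.38), and period (LOC5570169) ran from -0.59 to 2.09 with one library left out. The causes were not tested. Of 297 called genes examined singly, 254 stayed called under every alternative that tested them, and 25 were lost with some library left out. Of 19256 genes, 12088 passed the count filter; with no filter beyond a total above 0, edgeR called 8485 and DESeq2 8787 of 16986.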

Other observations

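The most abundant genes without a description differed between the tissues, with levels here as the authors' TPM. In fat body, below the non-coding RNA LOC5565553 given in the report, these were LOC5580030 at 5012 ± 529 TPM (SD, n = 3) against 2243 ± 141 in brain, LOC5573763 at 2209.8 ± 131 against 374 ± 23.1, LOC5578050 at 1183 ± 265 against 96.6 ± 21.3 and LOC5570480 at 1052 ± 23.2 against 28 ± 6.08. In brain they included LOC110678083 at 1705 ± 230.0 TPM against 2.81 ± 1.29 in fat body and LOC5569903 at 1571 ± 269.8 against 0.628 ± 0.818. All 6 were called by edgeR in the direction of the higher mean, and those of brain had fat body levels near 0.

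The report does not name every gene with a large difference in favour of brain. An axonemal dynein heavy chain (LOC5572569), a motor of cilia, had 181, 149 and 89 CPM in brain libraries 1, 2 and 3 and at most 0.401 CPM in fat body. A glycine receptor subunit gene (LOC5576018), of the family of ligand-gated chloride channels and a member of the group of transmitter and amine receptors, had 78.1, 83.2 and 113 CPM in brain and at most 0.29 CPM in fat body. A gene described as biofilm and cell wall regulator 1-like (LOC110675441) had 214, 172 and 381 CPM in brain and at most 0.386 CPM in fat body. The 3 genes had no overlap between the tissues, which the rule for the largest differences asks for and 72.4% of all genes tested showed.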
